A study of Mus musculus with 12 samples.

Results

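The 8 long noncoding RNAs described here are autosomal and known to be retained in the cell nucleus: Meg3, Rian, Mirg, Malat1, Neat1, Miat, Snhg11 and Snhg14. They were measured in the dorsal hippocampus. They were taken by symbol from the table of raw read counts, where all 8 were found among 24985 genes, and all 8 were among the 14742 genes kept for testing. The study asked how a diet rich in acetate alters the hippocampal transcriptome in a mouse model of tau seeding. The 12 libraries came from C57Bl6/J mice labelled male, 3 in each of 4 groups. Their counts of Xist and Y-linked genes, given below, go against that label. Mice were 6 months old when 1 hemisphere received either PBS or 1 ug of AD tau, a sarkosyl-insoluble tau preparation purified from human Alzheimer's disease cortex, and were then fed control chow or chow with 5% sodium acetate. The groups are called PBS control, PBS acetate, AD tau control and AD tau acetate. The labels name no transgene or knockout for these mice, and in this model injected tau seeds the aggregation of mouse tau. The labels name different base chows for the control and acetate diets, so acetate and base chow cannot be told apart. Tissue was taken a day after a test of remote memory, and the right dorsal hippocampus was used whole.

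Long noncoding RNAs of this kind are transcribed, and often spliced and polyadenylated, like messenger RNAs, although Malat1 and Neat1 are single-exon genes. They are not translated and act, or are simply retained, at chromatin and in nuclear bodies. Meg3, Rian and Mirg are read from the maternal chromosome of the imprinted Dlk1-Dio3 domain and carry small RNAs in their exons and introns. Malat1 sits in nuclear speckles, where splicing factors are stored, and Neat1 is the scaffold of paraspeckles. Miat, also called Gomafu, forms its own bodies in neurons and binds splicing factors. Snhg11 and Snhg14 are host genes of small nucleolar RNAs, and the far end of Snhg14 runs antisense to Ube3a, the ubiquitin ligase lost in Angelman syndrome, whose paternal copy it keeps silent in neurons.

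The 8 genes fall into 5 loci (GENCODE M21, GRCm38). Meg3 lies at chr12:109541001-109571726, Rian at chr12:109603940-109661716 and Mirg at chr12:109729764-109749460, all on the plus strand. Rian starts 32.2 kb after Meg3 ends, and Mirg 68.0 kb after Rian. Malat1, at chr19:5795690-5802672, and Neat1, at chr19:5824708-5845478, are single-exon genes on the minus strand of chromosome 19, 22.04 kb apart. Miat lies at chr5:112213228-112229395 on the minus strand, Snhg11 at chr2:158375638-158386145 on the plus strand, and Snhg14 at chr7:59307924-59975759 on the minus strand. RefSeq draws Snhg14 further, to base 60450177, so that it takes in Snrpn, and 208 small nucleolar RNA genes lie within its GENCODE bounds. Snhg11 holds 2 small nucleolar RNA genes and is typed as protein coding in GENCODE but as a long noncoding RNA in RefSeq.

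**Figure D1:**
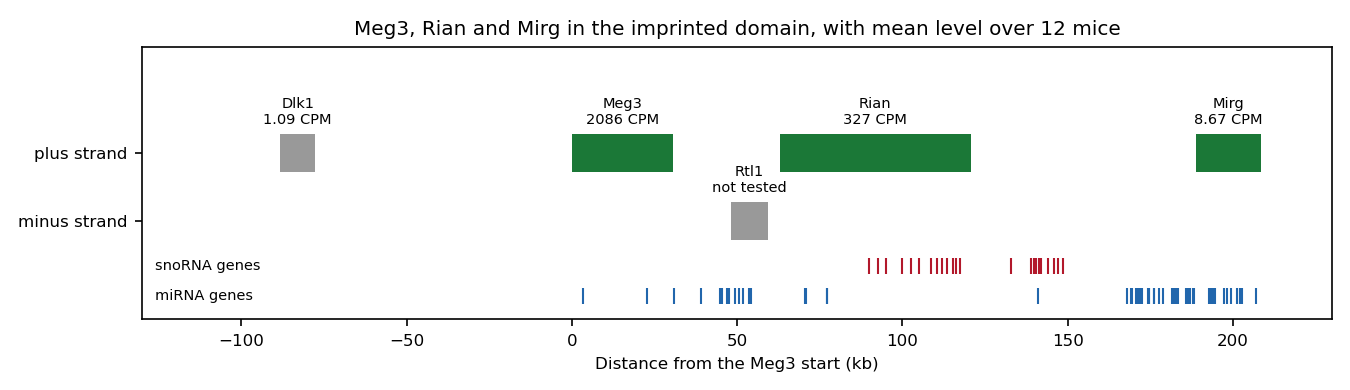
Map of the Meg3, Rian and Mirg genes, in kb from the Meg3 start, with the mean level over 12 mice (CPM) above each gene, neighbouring protein-coding genes in grey and small nucleolar RNA and miRNA genes as ticks. The level falls from 2086 CPM for Meg3 to 327 CPM for Rian and 8.67 CPM for Mirg, and the protein-coding neighbour Dlk1 stands at 1.09 CPM.

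The small RNAs of the imprinted domain were not measured by these libraries, which hold fragments of polyadenylated RNA, but they are the best known product of Rian and Mirg. By position, 3 mature miRNAs lie within Meg3, 6 within Rian and 26 within Mirg (RefSeq, GRCm38.p6). These 6 are shown with the seed, bases 2 to 8, in capitals, to show what each host carries: miR-770-5p from Meg3, miR-370-3p from Rian, and 4 from Mirg. They include miR-134-5p, which limits the size of dendritic spines in hippocampal neurons, and miR-453 and miR-496a-5p, the only 2 of the 26 Mirg miRNAs with a shared seed.
miR-770-5p: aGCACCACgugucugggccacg
miR-370-3p: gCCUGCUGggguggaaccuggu
miR-134-5p: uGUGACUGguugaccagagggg
miR-410-3p: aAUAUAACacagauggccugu
miR-453: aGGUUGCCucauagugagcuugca
miR-496a-5p: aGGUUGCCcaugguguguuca

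The other sequence shown is the stretch of Miat that distinguishes it from the remaining 7 RNAs. TACTAAC, the letters of the intron branch site and a binding motif of the splicing proteins Sf1 and Qk, occurs 6 times in the longest Miat transcript, or 0.655 times per kb. Among 11712 genes with a longest transcript of at least 2000 bases, Miat ranked 3 by this density. The motif was found once in Neat1 and not in the longest transcripts of the other 6 RNAs, and 8.24% of 14638 genes hold it at all. Of these, 3 copies lie within 47 bases, at positions 5586 to 5632 of the transcript, with the motif in capitals.
Miat: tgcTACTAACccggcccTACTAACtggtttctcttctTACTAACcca

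Most of the 8 RNAs were abundant in this tissue, and Mirg was not. In CPM, reads scaled to the size of the library, Meg3 stood at 2086 ± 367 (SD, n = 12 mice), rank 14 of the 14742 genes tested, Malat1 at 1202 ± 176 (rank 63) and Snhg11 at 1192 ± 186 (rank 65). Miat followed at 541 ± 106 (rank 240), Rian at 327 ± 22.5 (rank 515), Neat1 at 202 ± 41.9 (rank 1035) and Snhg14 at 62.5 ± 8.01 (rank 3855). Mirg was low, at 8.67 ± 1.31 CPM (rank 10400), with 104 to 211 reads per mouse against 23040 to 48659 for Meg3. Meg3, Malat1 and Snhg11 were the 3 highest of 556 long noncoding RNA genes tested, and the 8 together took 41.1% to 51.9% of the counts on those genes. The source of these RNAs could not be set to neurons from whole tissue, in which fewer cells of a type and less RNA per cell cannot be told apart. The 10 neuronal markers were all counted, their sum being 14064 to 15689 CPM across the 12 mice.

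Per kb of exon the order changed. Malat1 had 172 ± 25.2 CPM per kb (SD, n = 12), Snhg11 140 ± 21.8 and Meg3 115 ± 20.3, and the ranges of neighbours in this trio overlapped. Miat had 58.2 ± 11.4 CPM per kb, Rian 18.0 ± 1.23, Neat1 9.72 ± 2.02, Snhg14 2.40 ± 0.307 and Mirg 1.19 ± 0.179. From Meg3 down to Mirg no mouse of one RNA reached the range of the next on this scale. With the longest transcript in place of all exons, Snhg11 moved ahead of Malat1, at 203 CPM per kb, Rian stood at 40.5, and Snhg14, at 9.12, stood next to Neat1, at 9.72, with the ranges over mice not compared on that scale. Malat1 ends in an encoded A-rich stretch and not in an ordinary poly(A) tail, and most of the long Neat1 form lacks one too. How well the poly(A) selection used here captured them was not tested. Reads that overlap another feature are a further limit for Mirg, whose exons contain 9 miRNA rows of the table holding 251 reads against 1655 for Mirg itself over the 12 mice. For Snhg14 the RefSeq bounds take in Snrpn, which had 566 reads against 11894 for Snhg14. Which exons were counted for Snhg14 is not known, and its level and CPM per kb carry that limit.

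The main pattern was the position of the PBS acetate mice. For 4 of the 8 RNAs, Meg3, Miat, Snhg11 and Snhg14, all 3 PBS acetate mice lay above each of the other 9 mice, a position held by 1.97% of all genes tested. This grouping was noticed in the values and is a description. It is seen in each of the next 4 accounts.

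Miat rose with the acetate diet in PBS mice and was the only one of the 8 RNAs called in any comparison by edgeR's quasi-likelihood test, at a Benjamini-Hochberg adjusted p below 0.1. Miat stood at 470.4, 505.5 and 365 CPM in the PBS control mice and at 699.8, 707 and 648 CPM in the PBS acetate mice. The AD tau control mice had 498, 529.5 and 573 CPM and the AD tau acetate mice 553, 402 and 541 CPM. The lowest PBS acetate mouse was thus above the highest of every other group. The mean was 447 ± 73.2 CPM on the control diet and 685 ± 32.2 CPM on the acetate diet in PBS mice (SD, n = 3). On the log2 scale this difference was 0.62 ± 0.14 (SE; 95% interval 0.30 to 0.93), with an edgeR adjusted p of 0.0458 and a DESeq2 adjusted p of 0.00212. One of 8 RNAs called compares with 8.84% of all genes called in this comparison, 3.99% in the higher direction, and DESeq2 called 9.29% of the genes it tested. In AD tau mice the log2 difference between diets was −0.10 ± 0.14 (edgeR adjusted p = 0.862). The difference between these effects, the interaction, was −0.71 ± 0.20 on the log2 scale and did not pass (edgeR adjusted p = 0.158).

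The Miat call was lost in 3 of 12 fits that left out 1 mouse and in both fits with a cell type covariate. It did not pass without PBS control replicate 3 (log2 fold change 0.49, edgeR adjusted p = 0.103), PBS acetate replicate 1 (0.61, 0.123) or PBS acetate replicate 2 (0.60, 0.178). In the same comparison, 6 of 6 CA1 markers were higher and 4 passed, their sum moving from 488–652 to 781–1047 CPM. All 7 CA3 markers were lower and 5 passed (1488–1715 to 1051–1332 CPM), and all 10 oligodendrocyte markers were lower and 3 passed (7420–9582 to 4658–6422 CPM). Of the 10 neuronal markers 5 passed, all lower. With the difference between CA1 and CA3 scores as a covariate, the Miat log2 fold change was 0.56 (edgeR adjusted p = 0.971), and with an oligodendrocyte score it was 0.67 (edgeR adjusted p = 0.310). The CA1 minus CA3 score was −1.21 to −0.61 in the PBS control and 0.063 to 1.06 in the PBS acetate mice. The oligodendrocyte score was 0.17 to 0.56 and −0.45 to 0.023. Both scores separated these groups, so diet and cell mix cannot be told apart by these fits for any gene.

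Meg3, a maternally expressed RNA that binds chromatin-modifying complexes, stood at 2209.9, 2082 and 1560.2 CPM in the PBS control mice and at 2732, 2509 and 2359 CPM in the PBS acetate mice. The AD tau control mice had 1855, 2058 and 2284 CPM and the AD tau acetate mice 1998, 1460.1 and 1926 CPM. One PBS control mouse and 1 AD tau acetate mouse lay well below the other 10. The means were 1951 ± 344, 2533 ± 188, 2066 ± 215 and 1795 ± 292 CPM (SD, n = 3) in the same order of groups. The log2 difference between diets in PBS mice was 0.38 ± 0.15 (edgeR adjusted p = 0.205; 0.24 without PBS control replicate 3), and that between AD tau and PBS on the acetate diet was −0.50 ± 0.15 (edgeR adjusted p = 0.321).

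Snhg11, a neuron-enriched host of small nucleolar RNAs, followed Meg3 closely. It stood at 1262, 1204 and 901 CPM in the PBS control mice and at 1399, 1459 and 1374 CPM in the PBS acetate mice. The AD tau control mice had 1117, 1145 and 1319.99 CPM and the AD tau acetate mice 1138, 857 and 1131 CPM. The same 2 mice as for Meg3 were the lowest. The log2 difference between diets in PBS mice was 0.33 ± 0.14 (edgeR adjusted p = 0.218; 0.19 without PBS control replicate 3) and that between AD tau and PBS on the acetate diet −0.44 ± 0.14 (edgeR adjusted p = 0.334).

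Snhg14 stood at 65.0, 65.9 and 49.97 CPM in the PBS control mice, at 70.4, 76.1 and 69.1 CPM in the PBS acetate mice, at 64.0, 56.9 and 63.8 CPM in the AD tau control mice and at 59.4, 48.6 and 61.4 CPM in the AD tau acetate mice. Its log2 difference between diets in PBS mice was 0.26 ± 0.10 (edgeR adjusted p = 0.179; 0.14 without PBS control replicate 3 and 0.12 with the CA1 minus CA3 covariate), and between AD tau and PBS on the acetate diet −0.35 ± 0.10 (edgeR adjusted p = 0.260). Ube3a, on the opposite strand, stood at 153 ± 3.62 CPM in the PBS control and 141 ± 5.94 CPM in the PBS acetate mice (log2 difference −0.12 ± 0.06, edgeR adjusted p = 0.258). In AD tau mice Ube3a stood at 153, 150 and 168 CPM on the control diet and at 136, 131 and 149 CPM on the acetate diet. The Snhg14 mean in those mice was also lower with acetate, at 56.5 against 61.6 CPM. The ratio of Snhg14 to Ube3a reads was 0.416, 0.442 and 0.326 in the PBS control mice and 0.479, 0.544 and 0.511 in the PBS acetate mice. It was 0.379 to 0.418 in the AD tau control and 0.370 to 0.438 in the AD tau acetate mice, so the PBS acetate group did not overlap any other. Snhg14 alone already set the PBS acetate mice above all others, so the ratio is not a separate result. How often the ratios of other gene pairs separate in this way was not computed. The exons of Snhg14 and Ube3a overlap, and the study's methods name counting by strand.

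**Figure D2:**
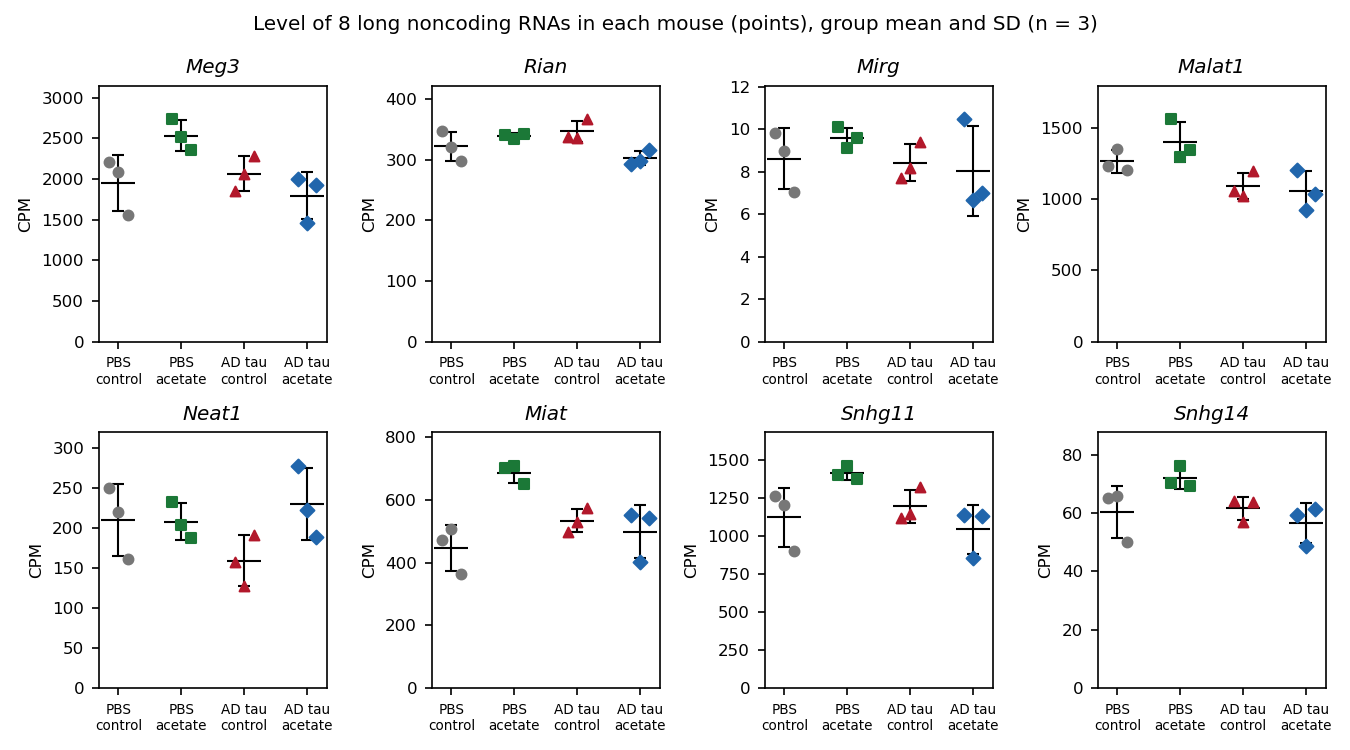
CPM of each of the 8 RNAs (panels, y axes from 0) in each mouse (points), by group on the x axis, with the group mean (bar) and SD (whiskers, n = 3). The PBS acetate mice (green squares) lie above all other mice for Meg3, Miat, Snhg11 and Snhg14, and not for Rian, Mirg, Malat1 and Neat1.

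Malat1 was ordered by injection, with no edgeR call for AD tau on either diet over all mice. It stood at 1234, 1353 and 1204 CPM in the PBS control mice and at 1558, 1297 and 1345 CPM in the PBS acetate mice, against 1058, 1018 and 1194 CPM in the AD tau control mice and 1202, 922 and 1039 CPM in the AD tau acetate mice. Every AD tau mouse thus lay below every PBS mouse, on both diets together, the closest being 1202 and 1204 CPM. The share of all genes separated in this way was not computed, so this order is a description. On the control diet the mean was 1264 ± 79.2 CPM with PBS and 1090 ± 92.4 CPM with AD tau (SD, n = 3), a log2 difference of −0.21 ± 0.10 (edgeR adjusted p = 0.520), which was −0.12 with the CA1 minus CA3 covariate and −0.064 with the oligodendrocyte covariate. On the acetate diet it was 1400 ± 139 and 1054 ± 141 CPM, a log2 difference of −0.41 ± 0.10 (95% interval −0.62 to −0.19, edgeR adjusted p = 0.177). The DESeq2 alternative called Malat1 lower with AD tau on the acetate diet, at the same log2 difference of −0.41 (DESeq2 adjusted p = 0.00778). Over the 10 alternatives to this value, covariate fits included, the Malat1 log2 difference lay between −0.51 and −0.41. In the same comparison 10 of 10 oligodendrocyte markers were higher with AD tau and none passed, their sum being 4658–6422 CPM with PBS and 5627–9029 CPM with AD tau, and 7 of 7 CA3 markers were higher with none passing. Choroid plexus markers were higher in 6 of 6 (median log2 difference 1.90; sum 65.1–82.2 CPM with PBS and 80.5–479.7 CPM with AD tau), as were thalamus and OPC markers in 6 of 6 each and microglia markers in 7 of 9, none passing, and the part of these 4 lists in the result was not tested.

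Neat1 had the widest spread of the 8 RNAs, a 2.17-fold range between the lowest and highest mouse. The PBS control mice had 249.8, 220.3 and 161 CPM, the PBS acetate mice 233, 204 and 187 CPM, the AD tau control mice 158, 128 and 191 CPM, and the AD tau acetate mice 278, 222 and 189 CPM. The groups overlapped in all 4 comparisons. In AD tau mice the log2 difference between diets was 0.53 ± 0.21 (edgeR adjusted p = 0.419), and 0.092 with the oligodendrocyte covariate. All 10 oligodendrocyte markers were higher with acetate in these mice, and none passed. The ratio of Neat1 to Malat1 reads was 0.231, 0.241 and 0.182 in the AD tau acetate mice and 0.150, 0.126 and 0.160 in the AD tau control mice, and the PBS mice ran from 0.134 to 0.203.

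Rian had the narrowest spread, a 1.25-fold range. It stood at 347, 321 and 298 CPM in the PBS control mice, at 341, 333 and 342 CPM in the PBS acetate mice, at 337, 336 and 366 CPM in the AD tau control mice and at 293, 299 and 315 CPM in the AD tau acetate mice. In AD tau mice the acetate group did not overlap the control group and was lower, with a log2 difference of −0.20 ± 0.06 (edgeR adjusted p = 0.229, DESeq2 adjusted p = 0.0794). Its interaction was −0.27 ± 0.08 (edgeR adjusted p = 0.134, DESeq2 adjusted p = 0.0776). Mirg, the host of the miRNA cluster, ran from 6.65 to 10.5 CPM, its groups overlapped in all 4 comparisons, and its log2 differences lay between −0.24 and 0.15 with SEs of 0.16 to 0.17.

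With AD tau on the acetate diet, 6 of the 8 RNAs (Meg3, Rian, Malat1, Miat, Snhg11 and Snhg14) were lower in every AD tau mouse than in any PBS mouse, against 8.71% of all genes. The same 6 had an unadjusted p below 0.05, against 10.3% of all genes. None passed the adjusted threshold in edgeR, as did 0.136% of all genes, and the median log2 difference was −0.38, against −0.0035 for all genes. DESeq2 called 1 of the 8 on 12 mice (0.674% of the genes it tested), and 4 on the 6 mice compared (0.86%). On the control diet only Malat1 was separated, against 6.84% of all genes separated in the lower direction. None was called there by edgeR (0.0136% of all genes) or by DESeq2 (0.688%), 0 had an unadjusted p below 0.05 (9.65% of all genes), and the median log2 difference was 0.06. The comparison of AD tau with PBS on the acetate diet and that of the diets in PBS mice share the 3 PBS acetate mice.

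For the diet, 4 of 8 RNAs were separated in PBS mice, all higher with acetate, against 13.1% of all genes in that direction. The same 4 had an unadjusted p below 0.05, against 20.8% of all genes, and the median log2 difference was 0.20. DESeq2 on the 6 mice compared called 2, Miat and Snhg11 (8.22% of the genes it tested). In AD tau mice 1 of 8 was separated (Rian, lower; 7.77% of all genes), 2 had an unadjusted p below 0.05 (Rian and Neat1; 10.9% of all genes), and edgeR called 0 of the 8 and 0.0611% of all genes while DESeq2 called Rian (2.19% of the genes it tested). The median log2 difference was −0.11. For the interaction edgeR called 0 of 8 (1.56% of all genes), 5 had an unadjusted p below 0.05 (13% of all genes), all with negative values, and DESeq2 called Rian and Miat (2.8% of the genes it tested). Across all 556 long noncoding RNA genes tested, 27 passed as higher and 4 as lower with acetate in PBS mice, a share of 5.58% in either direction, and their median log2 difference was 0.095.

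**Figure D3:**
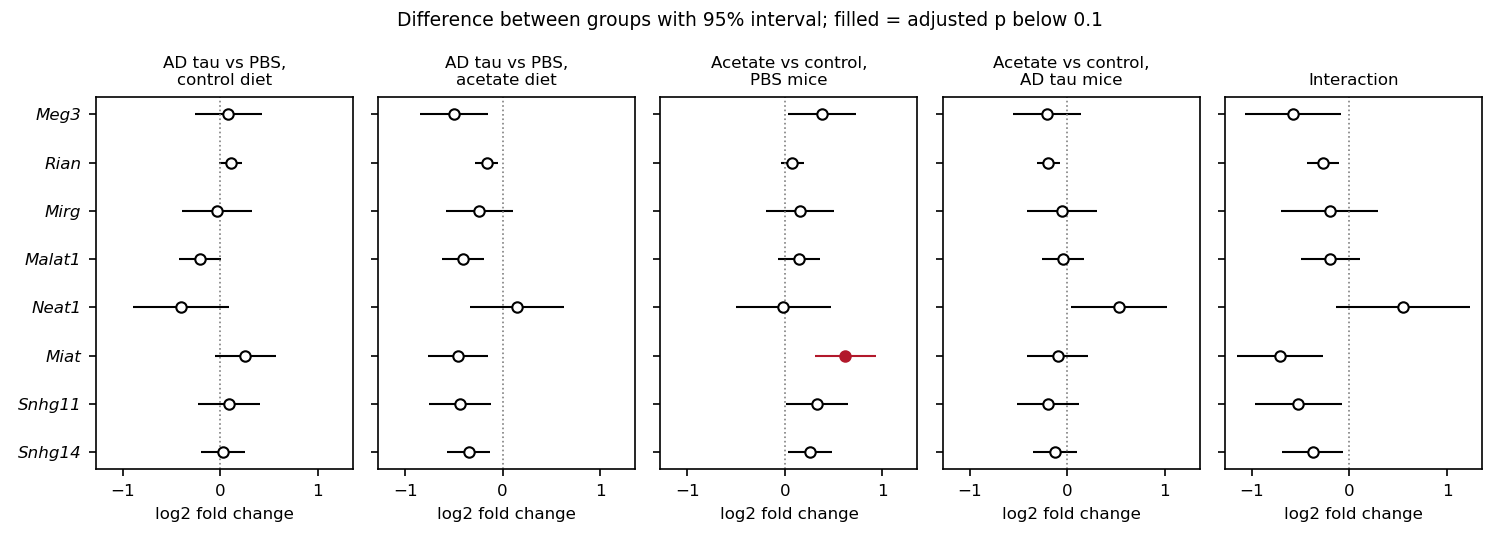
Log2 fold change of each RNA (rows) in 5 panels, 1 for each comparison and 1 for the interaction, with 95% intervals from edgeR. A filled red point marks an adjusted p below 0.1, which Miat alone reached, at 0.62 with acetate in PBS mice.

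Across the 12 mice most of the RNAs varied together. Of 28 pairs, 18 had a permutation p for Pearson's r that stayed below 0.1 after adjustment over the 28. The share of other gene pairs that pass in this way was not computed, so the count is a description. Values were permuted over all 12 mice, so differences between the groups enter these p-values. The closest pair was Meg3 and Snhg11 (r = 0.978, permutation p = 1e-05, adjusted 0.00028; rho = 0.993, permutation p = 1e-05; n = 12), that p being the smallest that 100000 resamples can give. Without the 2 mice farthest from the median Meg3 level, r was 0.941. These genes lie on chromosomes 12 and 2, and the ratio of their reads ran only from 0.512 to 0.602. Snhg11 and Snhg14 followed (r = 0.954, rho = 0.860, adjusted permutation p = 0.00056 and 0.00709; 0.859 without 2 mice), then Meg3 and Snhg14 (r = 0.907, rho = 0.853, adjusted permutation p = 0.000952 and 0.00709; 0.738 without 2 mice), Miat and Snhg11 (r = 0.905, rho = 0.825, adjusted permutation p = 0.000952 and 0.011; 0.793 without 2 mice) and Meg3 and Miat (r = 0.904, rho = 0.818, adjusted permutation p = 0.000952 and 0.011; 0.800 without 2 mice). After subtracting group means, r was 0.953 for Meg3 and Snhg11 and 0.947 for Meg3 and Miat, the only 2 pairs below 0.1 after adjustment (within-group permutation, both adjusted p = 0.0972).

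Pairs from the same locus were not the closest. Meg3 with Mirg had r = 0.808 (rho = 0.720, adjusted permutation p = 0.00428 and 0.037; 0.605 without 2 mice) and 0.796 after subtracting group means. Meg3 with Rian had r = 0.701 (rho = 0.643, adjusted permutation p = 0.0248 and 0.0645) and fell to 0.446 without 2 mice. Rian with Mirg had r = 0.447 (rho = 0.392, adjusted permutation p = 0.197 and 0.294). Malat1 with Neat1 had r = 0.388 (rho = 0.343, adjusted permutation p = 0.270 and 0.367). Neat1 had r between −0.20 and 0.51 with the other RNAs, and no pair passed. After subtracting group means its r was 0.49 to 0.80 with all 7 and no pair passed after adjustment. Whether 1 pair is closer than another was not tested.

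**Figure D4:**
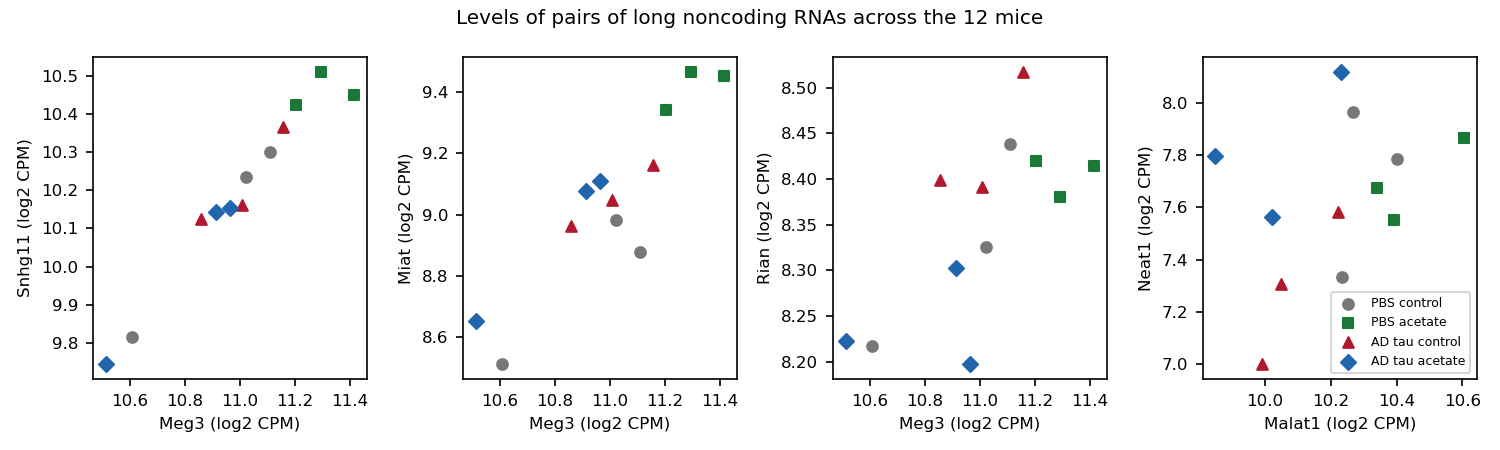
Levels (log2 CPM) of 4 pairs of RNAs in the 12 mice, each point 1 mouse, with the group by colour and shape. Meg3 and Snhg11 (r = 0.978) and Meg3 and Miat (r = 0.904) lie along a line, while Meg3 with Rian (r = 0.701) and Malat1 with Neat1 (r = 0.388) scatter.

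The genes most like each RNA, by Pearson's r over the 12 mice among about 10014 genes with a mean of at least 10 CPM, are given as a description. For Meg3 they were Snhg11, Col19a1 (r = 0.957) and Thbs3 (r = 0.956). For Snhg11 they were Meg3, Thbs3 and Ttc14 (r = 0.967), and for Snhg14 they were Ttc14, Snhg11 and Thbs3. Miat was closest to Pnisr (r = 0.950), a gene for a splicing-related protein, then Lmtk3 and Ankrd16. Malat1 was closest to Ano8 (r = 0.911), Prpf38b and D930016D06Rik, Rian to Scai (r = 0.935), Gria3 and Fubp1, Neat1 to Sec14l5 (r = 0.911), Arhgef10 and Acadvl, and Mirg to Tle2 (r = 0.930), Nvl and Mdm4.

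Genes of the same loci and nuclear bodies are given beside the 8.84% of all genes that passed with acetate in PBS mice, and nothing is read from their counts. Of 11 protein-coding genes tested in and around the Dlk1-Dio3 domain, 1 passed in any comparison, Ppp2r5c, lower with acetate in PBS mice (−0.22 ± 0.06, edgeR adjusted p = 0.0413). Of 11 genes tested around Snhg14, 1 passed, Nipa2, lower in that comparison (−0.19 ± 0.07, edgeR adjusted p = 0.0982), and of 13 around Malat1 and Neat1, 1 passed, Frmd8, which lies 4.22 kb from Neat1 and was lower (−0.63 ± 0.17, edgeR adjusted p = 0.0685). Among 16 paraspeckle protein genes, 11 were higher with acetate in PBS mice, and 2 passed, Ewsr1 among them (0.22 ± 0.07, edgeR adjusted p = 0.0605). With AD tau on the acetate diet 12 of the 16 were lower and none passed in edgeR, with 6 at an unadjusted p below 0.05 and 1 called by DESeq2. Over all genes these shares were 0.136% in edgeR, 10.3% unadjusted and 0.674% of the genes DESeq2 tested.

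Nuclear speckle protein genes were mostly on 1 side of zero in the comparisons that involve the PBS acetate mice. With acetate in PBS mice 18 of 21 were higher, 3 passed (Pnn, 0.21 ± 0.05, edgeR adjusted p = 0.037; Srsf5, 0.22 ± 0.07, 0.0685; Clk4, 0.22 ± 0.07, 0.0835), and the median log2 difference was 0.08. With AD tau on the acetate diet 20 of 21 were lower, 1 passed (Rbm25, 154 against 185 CPM, −0.26 ± 0.05, edgeR adjusted p = 0.0593), 10 had an unadjusted p below 0.05, DESeq2 called 4, and the median was −0.12, against −0.0035 for all genes. In that comparison 10.3% of all genes had an unadjusted p below 0.05, and edgeR called 0.136%. DESeq2 called 0.674% of the genes it tested. Of 8 splicing proteins that bind Miat or share its compartment, 3 passed with acetate in PBS mice: Celf3 rose (0.32 ± 0.08, edgeR adjusted p = 0.0482), and Celf4 (−0.27 ± 0.06, edgeR adjusted p = 0.0195) and Qk (−0.30 ± 0.07, edgeR adjusted p = 0.0319) fell. Qk is abundant in oligodendrocytes, whose 10 markers were all lower in this comparison (median −0.55). The part of that cell type in the Qk value was not tested here. Of 17 other small nucleolar RNA host genes tested, none passed in any comparison in edgeR or DESeq2, 0 to 3 had an unadjusted p below 0.05, and their medians lay between −0.11 and 0.08. Of 22 other autosomal long noncoding RNAs tested, Pantr1 rose (0.39 ± 0.10, edgeR adjusted p = 0.036) and Tug1 fell (−0.26 ± 0.06, edgeR adjusted p = 0.0298) with acetate in PBS mice, and the remaining 20 did not pass.

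The promoters of the 4 RNAs that were highest in the PBS acetate mice are shown. These RNAs were picked by that position, which by itself raises their correlation over the same mice. After subtracting group means, no pair of Snhg14 with the other 3 passed (within-group permutation, adjusted p 0.103 to 0.13). Each window runs from 250 bases before to 50 after the RefSeq start (GRCm38.p6), 5′ to 3′ on the gene's strand, with motif matches in capitals. For Snhg14 that start is base 60450177, where the RefSeq bounds of Snrpn also end. It lies outside the GENCODE bounds of Snhg14, which end at base 59975759. The 6 motifs were searched on both strands: TGACG, the first letters of the cAMP response element, in 20.81% of 32851 promoters, CACGTG, the E-box, in 7.15%, TATAAA in 13.62%, GGGCGG, the GC box, in 35.66%, CCAAT in 37.41%, and GTTGCC, part of the X-box, in 12.51%.
Meg3, chr12:109540746-109541045, plus strand: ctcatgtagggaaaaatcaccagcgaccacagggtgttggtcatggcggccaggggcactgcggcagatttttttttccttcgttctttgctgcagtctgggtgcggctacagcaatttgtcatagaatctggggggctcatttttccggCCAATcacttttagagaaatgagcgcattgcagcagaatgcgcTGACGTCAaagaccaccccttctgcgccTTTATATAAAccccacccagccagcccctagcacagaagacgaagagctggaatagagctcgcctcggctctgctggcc
Miat, chr5:112228899-112229198, minus strand: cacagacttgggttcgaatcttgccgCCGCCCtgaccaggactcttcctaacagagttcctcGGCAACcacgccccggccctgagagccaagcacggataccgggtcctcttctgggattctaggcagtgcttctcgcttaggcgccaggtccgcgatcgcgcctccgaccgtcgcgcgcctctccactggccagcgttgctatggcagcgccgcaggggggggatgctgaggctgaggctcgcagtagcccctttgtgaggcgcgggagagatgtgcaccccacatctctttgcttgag
Snhg11, chr2:158375463-158375762, plus strand: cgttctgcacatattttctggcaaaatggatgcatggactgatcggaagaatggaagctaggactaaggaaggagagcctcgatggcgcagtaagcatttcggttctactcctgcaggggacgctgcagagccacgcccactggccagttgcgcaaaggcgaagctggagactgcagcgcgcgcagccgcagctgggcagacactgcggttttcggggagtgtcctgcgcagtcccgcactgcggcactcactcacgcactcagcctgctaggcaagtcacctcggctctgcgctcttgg
Snhg14, chr7:60450128-60450427, minus strand: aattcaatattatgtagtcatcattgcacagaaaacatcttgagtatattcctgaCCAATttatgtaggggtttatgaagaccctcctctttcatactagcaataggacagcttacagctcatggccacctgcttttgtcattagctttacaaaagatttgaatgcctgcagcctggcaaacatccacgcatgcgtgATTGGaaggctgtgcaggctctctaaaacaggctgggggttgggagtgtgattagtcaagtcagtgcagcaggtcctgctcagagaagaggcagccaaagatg

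No searched motif was common to the 4 windows. Meg3 held TGACG 2 times, once on each strand within a full TGACGTCA, with TATAAA 2 times, overlapping, and CCAAT once. Miat held GGGCGG and GTTGCC once each, Snhg14 held CCAAT 2 times, and Snhg11 held none of the 6. The windows of Miat and Snhg11 were rich in CpG, with 25 and 21 against a median of 7 over all promoters, while that of Snhg14 had 2. Malat1, not printed, held TGACG 3 times, Mirg CCAAT once, and Rian none. A further RefSeq window of Meg3 (chr12:109545148-109545447), also not printed, held none of the 6. A match is a string of letters and not a bound site.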

How the data were processed

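RNA-seq libraries of polyadenylated RNA from 12 mice were used. The authors deposited raw read counts per gene, made per the labels with STAR 2.5.2a and HTSeq 0.9.1 on GRCm38. The annotation behind the counts is not given in the sources used here. The labels name a directional kit and the study's methods another. A check on 13 antisense genes found a median of 0.612% of the sense level, with 1 gene above 50%. At least 80% of their exon bases lie in exons of the sense gene. Counting without strand would leave such reads unassigned too, so this check cannot decide whether strand was kept. The study's methods name a reverse-strand setting for HTSeq. Library totals were 12983233 to 20218340 counts. The 8 RNAs and all gene lists were chosen with earlier results of these data known.

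Counts were normalised by TMM and fitted in edgeR 4.0.16 (robust quasi-likelihood, R 4.3.3), with 1 mean for each of the 4 groups over all 12 mice and 8 residual degrees of freedom. Genes with low counts were removed by filterByExpr (count of at least 10, total of at least 15), leaving 14742 of 24985, and p-values were adjusted over all of them by Benjamini-Hochberg. A call is an adjusted p below 0.1. DESeq2 1.42.0 was an alternative, with other scaling, no filter, fits on the compared mice only, marker covariates, thinning to the smallest library and leaving out each mouse. Levels are CPM, and log2 CPM used a prior count of 2. The fit was tested on simulated data. Pearson and Spearman correlations used 100000 permutations, two-sided. No source says that the mice of a group came from separate litters or cages, so p-values measure only the spread between these mice. Libraries of a group differed by more than counting noise. Genes named were the 8 RNAs, list genes that passed, neighbours and the 3 genes most like each RNA. One list gene that passed is not reported here. Loci came from GENCODE M21 and promoters and miRNAs from RefSeq. RefSeq's table held promoters for 7 of the 8 RNAs, all but Neat1.

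All mice are labelled male, but Xist was counted in 12 of 12 (910 to 1353 CPM) and 8 Y-linked genes had 0 counts. This is the pattern of female tissue and goes against the label. The study's methods name male mice for bulk RNA-seq and female mice for behaviour. None of the 8 RNAs is on a sex chromosome. None of the 13 mitochondrial genes of the RNA quality list is among the genes analysed here, so that list gave no value.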

Additional observations from a re-analysis of the deposited data

Results flagged for a closer look

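Among the genes followed beside the 8 RNAs, Qk, an RNA-binding protein that binds the TACTAAC motif found in Miat, is given because the effect of the diet differed between PBS and AD tau mice by a test of the difference. Qk stood at 411 ± 21.99 CPM in the PBS control, 334 ± 25.7 in the PBS acetate, 345 ± 31.7 in the AD tau control and 363 ± 20.7 in the AD tau acetate mice (SD, n = 3). The interaction was 0.37 ± 0.10 on the log2 scale (edgeR adjusted p = 0.0973), and oligodendrocyte markers, a cell type in which Qk is abundant, had a median interaction of 1.07. With an oligodendrocyte covariate the Qk interaction was 0.044 (edgeR adjusted p = 0.981). It also did not pass with the CA1 minus CA3 covariate (0.38, edgeR adjusted p = 0.571), with the replicate block (0.37, edgeR adjusted p = 0.102), at a threshold of 0.05, or in 8 of the 12 fits that left out 1 mouse (0.31 to 0.45 over the 12, edgeR adjusted p 0.0369 to 0.246).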

How the results depend on the processing

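Values kept their direction in all 40 RNA by comparison results under DESeq2 size factors, no filter, thinning and the replicate block. A threshold of 0.05 uses the same fit, so directions cannot differ there. DESeq2 on 12 mice called 1 of the 8 RNAs with AD tau on the acetate diet (Malat1, −0.41), 1 with acetate in AD tau mice (Rian, −0.20) and 2 in the interaction (Rian −0.27, Miat −0.71). It called 1, 6, 1 and 3 list genes in AD tau on the control diet, AD tau on the acetate diet, acetate in AD tau mice and the interaction. DESeq2 on the compared mice called 4 RNAs with AD tau on the acetate diet (Meg3 −0.49, Malat1 −0.41, Snhg11 −0.43, Snhg14 −0.35) and 2 with acetate in PBS mice (Miat, and Snhg11 at 0.33), against 0.86% and 8.22% of the genes tested in those fits, with 3, 7 and 1 list genes in AD tau on the control diet, AD tau on the acetate diet and acetate in AD tau mice. At 0.05, list genes called were 0 for AD tau on the acetate diet, 8 for acetate in PBS mice (13 at 0.1) and 0 for the interaction. DESeq2 size factors and thinning each gave 2 list genes for the interaction. DESeq2 gave no adjusted p for Mirg with acetate in AD tau mice.

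With the CA1 minus CA3 covariate 0 RNAs and 0 list genes were called with acetate in PBS mice (Miat 0.56) and 0 list genes in the interaction, and signs turned for Mirg (0.12) and Snhg14 (−0.034) with AD tau on the control diet, Neat1 (0.13) with acetate in PBS mice, and Mirg (0.031) and Malat1 (0.0058) with acetate in AD tau mice. With the oligodendrocyte covariate the same counts were 0, 0 and 0 (Miat 0.67), and signs turned for Mirg (0.34) and Neat1 (0.14) with AD tau on the control diet, Neat1 with AD tau on the acetate diet (−0.25), with acetate in PBS mice (0.48) and in the interaction (−0.39). The cause was not tested. Pairs correlated fell from 18 to 2 as deviations from group means. With the longest transcript, CPM per kb was 143 for Meg3, 40.5 for Rian, 2.27 for Mirg, 203 for Snhg11 and 9.12 for Snhg14.

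Leaving out 1 mouse at a time, RNAs called ran from 0 to 1 in AD tau on the acetate diet, acetate in PBS mice and the interaction. Malat1 passed with AD tau on the acetate diet without AD tau acetate replicate 1 (−0.51 to −0.32 over the 12 fits). Rian passed in the interaction without PBS control replicate 1 or AD tau acetate replicate 3 (−0.33 to −0.22). Miat with acetate in PBS mice ran from 0.49 to 0.71. List genes called ran from 0 to 2 with AD tau on the acetate diet, 0 to 14 with acetate in PBS mice (0 without PBS acetate replicate 2) and 0 to 5 in the interaction. Pairs correlated ran from 13 to 20. Signs turned, none of them called, for Meg3 (−0.054 to 0.18), Mirg (−0.16 to 0.075), Snhg11 (−0.045 to 0.18) and Snhg14 (−0.087 to 0.098) with AD tau on the control diet, Neat1 with AD tau on the acetate diet (−0.016 to 0.26) and with acetate in PBS mice (−0.18 to 0.13), and Malat1 (−0.15 to 0.040), Miat (−0.17 to 0.035) and Mirg (−0.29 to 0.067) with acetate in AD tau mice.

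Same-numbered mice correlated at −0.086 to 0.144 in their deviations from group means. In the PBS diet comparison 6 of 6 mice were closest to their own number, at 0.074 to 0.144, and in the others 0 of 6. The check thus did not settle whether replicate numbers pair the PBS mice. With the replicate block, 1 RNA passed with acetate in PBS mice, Miat at 0.62, and 0 in the other comparisons. The interaction of Qk was no longer called with the block (0.37, edgeR adjusted p = 0.102). All genes called went from 2 to 9 with AD tau on the control diet and from 230 to 349 in the interaction. No mouse had fewer than 738 reads for any of the 7 RNAs other than Mirg, and the lowest for Mirg was 104, so counting error weighs most on Mirg.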
